A study of Mus musculus with 8 samples.

Results

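The region described here is the distal part of mouse chromosome 14, from 45 Mb to the last peak at 124802229 bp (mm10), a span of 79.8 Mb in which every peak list of the study was sparse. Its members are all peaks on chromosome 14 that start at or beyond 45 Mb. There were 8712 of them among the 1719263 peaks of the 6 lists, which is 0.507%. The region was chosen by the measured number of peaks per Mb, so its low density is given as a description with no test, and nothing is supported with it. The members were 2932 and 1789 peaks of Mgea5 replicates 1 and 2, 393 and 3470 peaks of Panx2, and 5 and 123 peaks of Polr1c.

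The study used ChIP-seq, in which DNA bound to a protein is recovered with an antibody and sequenced, to look for proteins at the locus of the microRNA miR-9. The material was primary hippocampal neural progenitor cells (C57BL/6 strain, male), fixed with formaldehyde, with no treatment or genotype that separates the samples. Each of Mgea5, Panx2 and Polr1c had 2 replicates, and the 2 input samples were not used here. The labels give neither the animals' age nor whether replicates came from separate cultures, so a spread between them may be technical.

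Mgea5 is O-GlcNAcase, the enzyme that removes O-linked N-acetylglucosamine from nuclear and cytoplasmic proteins, many transcription regulators among them. Panx2 is a pannexin, a membrane channel protein of the brain that is not known as a DNA-binding factor. Polr1c is a subunit shared by RNA polymerase I, which transcribes ribosomal RNA, and RNA polymerase III, which transcribes tRNAs and other small RNAs. Distal chromosome 14 of the mouse carries the T cell receptor alpha and delta segments, a cluster of secreted ribonucleases, the retinoblastoma gene Rb1, the miR-17-92 cluster, and long neuronal genes set in wide gene-poor stretches.

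4 promoters are shown as examples, chosen after their values were seen. Atg14 had the highest Mgea5 folds, Prmt5 had a Polr1c peak of both replicates beside its start, Wdhd1 was 1 of 13 genes with peaks of 4 lists, and Tdrd3 had peaks of all 3 proteins and a Polr1c q below 0.01. Higher Polr1c folds stood at the ends of Zfp395, Rap2a and Slain1, whose windows are not shown. Each window shown is the 300 bases from 250 before to 50 after an annotated start, read in the direction of the gene. The windows are from RefSeq (GRCm38.p6, whose coordinates are those of mm10). That of Tdrd3 begins at 87416333, beyond the gene start of 87416178 that was used in the search of gene ends. Capitals mark CCAAT boxes (CCAAT or its reverse complement ATTGG) and GC boxes (GGGCGG or CCGCCC). Over all 32544 promoter windows of the table, CCAAT was in 37.4% and GGGCGG in 35.9% on either strand, and over the 728 distal windows in 34.5% and 30.4%.
Atg14, chr14:47568385-47568684, minus strand: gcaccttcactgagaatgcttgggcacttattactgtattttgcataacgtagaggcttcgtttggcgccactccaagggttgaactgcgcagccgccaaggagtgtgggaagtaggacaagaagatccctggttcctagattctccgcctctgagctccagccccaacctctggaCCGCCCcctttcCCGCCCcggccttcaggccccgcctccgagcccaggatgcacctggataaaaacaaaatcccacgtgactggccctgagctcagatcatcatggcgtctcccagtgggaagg
Prmt5, chr14:54517421-54517720, minus strand: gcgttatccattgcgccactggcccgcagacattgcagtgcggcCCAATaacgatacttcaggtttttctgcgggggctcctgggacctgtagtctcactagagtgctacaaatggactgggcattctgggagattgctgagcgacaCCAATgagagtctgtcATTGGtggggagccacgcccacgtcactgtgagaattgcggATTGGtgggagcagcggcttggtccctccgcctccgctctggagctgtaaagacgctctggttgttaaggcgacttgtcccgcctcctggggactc
Wdhd1, chr14:47276808-47277107, minus strand: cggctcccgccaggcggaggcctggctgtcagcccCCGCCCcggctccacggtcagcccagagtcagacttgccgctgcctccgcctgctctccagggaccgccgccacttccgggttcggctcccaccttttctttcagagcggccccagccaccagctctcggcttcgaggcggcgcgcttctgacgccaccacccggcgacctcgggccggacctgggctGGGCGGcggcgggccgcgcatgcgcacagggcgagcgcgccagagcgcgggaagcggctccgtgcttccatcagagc
Tdrd3, chr14:87416333-87416632, plus strand: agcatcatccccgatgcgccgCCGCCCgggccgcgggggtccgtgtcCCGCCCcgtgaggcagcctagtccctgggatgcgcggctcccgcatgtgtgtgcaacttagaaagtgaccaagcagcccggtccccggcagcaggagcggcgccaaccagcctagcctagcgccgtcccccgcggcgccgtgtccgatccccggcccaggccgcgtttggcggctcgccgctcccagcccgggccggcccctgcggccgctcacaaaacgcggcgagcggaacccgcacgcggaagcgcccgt

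The Atg14, Wdhd1 and Tdrd3 windows hold 2 GC boxes each and no CCAAT box, and the Prmt5 window holds 4 CCAAT boxes and no GC box. TATAAA, which was in 13.6% of all windows, was in none of the 4. The Atg14 window was covered by 300 and 162 bases of the Mgea5 peaks and by no other list, although a Panx2 replicate 2 peak lay within 1000 bp of an end of the gene. The Prmt5 window was covered by 300 bases of Mgea5 replicate 2 and by 193 and 127 bases of the Polr1c peaks. The Wdhd1 window was covered by 282 and 225 bases of Mgea5, 300 of Panx2 replicate 2 and 144 of Polr1c replicate 2. A match to a motif is a description of letters in these windows, not a site of binding.

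The mature microRNAs of the miR-17-92 cluster are shown because the cluster is the best-known microRNA locus of the region and all its members share the same peaks. Capitals mark the seed, bases 2 to 8, and the sequences are from RefSeq (GRCm38.p6).
mmu-miR-17-5p: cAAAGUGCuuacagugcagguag
mmu-miR-20a-5p: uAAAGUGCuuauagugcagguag
mmu-miR-18a-5p: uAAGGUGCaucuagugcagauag
mmu-miR-19a-3p: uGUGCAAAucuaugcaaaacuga
mmu-miR-19b-3p: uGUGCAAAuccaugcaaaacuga
mmu-miR-92a-3p: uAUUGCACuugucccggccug
miR-17-5p and miR-20a-5p share the seed AAAGUGC, and miR-19a-3p and miR-19b-3p share GUGCAAA, so the 6 sequences shown hold 4 seeds. The region also holds miR-15a and miR-16-1, which share a seed too.
mmu-miR-15a-5p: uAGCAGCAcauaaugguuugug
mmu-miR-16-5p: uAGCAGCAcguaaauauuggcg
Of the 34 microRNA genes placed in the region, 26 had a mature sequence in the table.

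The number of peaks per Mb fell to a fraction of that of other autosomes in each list. Mgea5 had 36.7 and 22.4 distal peaks per Mb in replicates 1 and 2, where the other 18 autosomes had 226.5 and 221.4. Panx2 had 4.92 and 43.5 against 61.1 and 201.3, and Polr1c had 0.0627 and 1.54 against 0.321 and 15.1. As a ratio to the other autosomes, distal density was 0.162 and 0.101 in the Mgea5 lists, 0.0806 and 0.216 in those of Panx2 and 0.195 and 0.102 in those of Polr1c. The lower of these came from replicate 2 for Mgea5 and Polr1c and from replicate 1 for Panx2. The mean over the replicates was 0.132 ± 0.0431 for Mgea5, 0.148 ± 0.0957 for Panx2 and 0.148 ± 0.0658 for Polr1c (SD, n = 2). The sparsest other single autosome had a ratio of 0.734 and 0.866 in the Mgea5 lists, 0.865 and 0.862 in those of Panx2 and 0.355 and 0.769 in those of Polr1c. The 0.355, of chromosome 18, rests on 10 peaks, and the distal ratio of that list rests on 5. The exact Poisson 95% interval of the latter, which covers counting error only, was 0.0633 to 0.455.

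The near side of the same chromosome was not sparse. Before 40 Mb, chromosome 14 had ratios of 1.16 and 1.18 in the Mgea5 lists, 1.57 and 1.12 in those of Panx2 and 1.43 and 1.16 in those of Polr1c. From 40 to 45 Mb the ratios were 0.457 and 0.495 for Mgea5, 0.832 and 0.430 for Panx2 and 0.595 for Polr1c replicate 2. Polr1c replicate 1 had 5 peaks in those 5 Mb, as many as in the whole distal span.

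The X chromosome, of which male cells carry a single copy, was sparse as well. Its ratios to the other autosomes were 0.159 and 0.0988 in the Mgea5 lists, 0.112 and 0.180 in those of Panx2 and 0.297 and 0.133 in those of Polr1c. Distal chromosome 14 lay above the X chromosome in both Mgea5 lists and in Panx2 replicate 2, and below it in Panx2 replicate 1 and both Polr1c lists. As a description of counting error, the exact Poisson 95% intervals of the distal Mgea5 ratios were 0.156 to 0.168 and 0.0966 to 0.106. Those of the X chromosome were 0.155 to 0.163 and 0.0956 to 0.102. For Panx2 they were 0.0728 to 0.0890 and 0.209 to 0.223, and 0.105 to 0.118 and 0.176 to 0.185 on the X chromosome. For Polr1c they were 0.0633 to 0.455 and 0.0847 to 0.122, and 0.170 to 0.482 and 0.119 to 0.148 on the X chromosome. Each interval covers counting error within 1 library only, and no likeness or difference is read from them. Read depth and the number of copies of the region in these cells were not tested, because the lists hold peaks only. In such data fewer copies of a region, fewer mapped reads and less bound protein cannot be told apart.

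**Figure D1:**
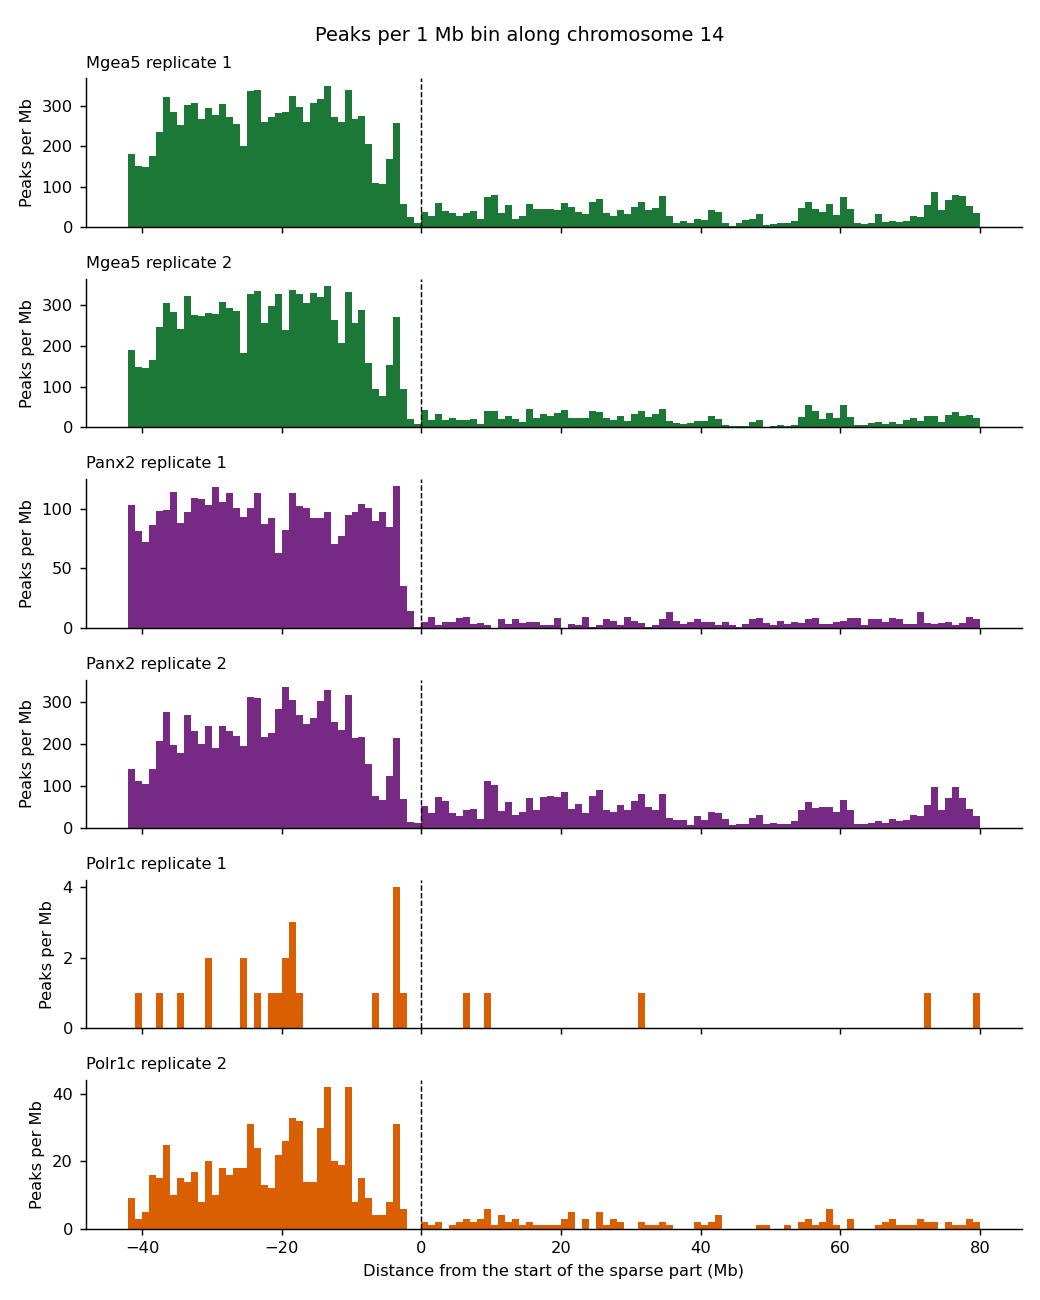
Peaks per 1 Mb bin along chromosome 14 for each of the 6 lists (y axis, number of peaks, with its own scale for each list) against the distance in Mb from the 45 Mb boundary (x axis, dashed line at 0). Peak number drops shortly before the boundary and stays low to the end of the chromosome, and Polr1c replicate 1 has only 5 peaks beyond it.

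The drop lay before the 45 Mb boundary and was uneven in most lists. The 100 kb position between 20 and 70 Mb that best divided a high from a low density was 42.0 and 42.2 Mb for Mgea5, 43.2 Mb for Panx2 replicate 1 and 42.2 Mb for Polr1c replicate 2. Panx2 replicate 2 had it at 37.5 Mb. In the bins from 38 to 40 Mb the ratio to other autosomes had already fallen to 0.477 and 0.468 in Mgea5 replicate 1, 0.420 and 0.343 in Mgea5 replicate 2, 0.378 and 0.333 in Panx2 replicate 2, and 0.264 in both bins of Polr1c replicate 2. All 4 of these lists rose again to 1.06 or more in the bin that starts at 41 Mb, while Panx2 replicate 1 stayed at 1.39 or more from 38 to 42 Mb. Polr1c replicate 1 had too few peaks for such a division. On either side of the position, Mgea5 replicate 1 had 267.5 and 41.8 peaks per Mb, and Panx2 replicate 1 had 91.1 and 4.33.

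The 45 Mb boundary lies within the sparse stretch, and the peaks next to it are given only to place it. For Mgea5 replicate 1, the last peak outside started at 44980831 with a fold enrichment of 1.72 and the first inside at 45019238 with 1.66. For Mgea5 replicate 2 these were 1.95 at 44708296 and 1.55 at 45016194. For Panx2 the last outside were 1.999 and 2.32 and the first inside 1.71 and 1.80. For Polr1c replicate 2 they were 2.57 and 2.45, and for Polr1c replicate 1, whose first peak inside was at 51063811, they were 3.34 and 3.63. The fold enrichment is the value the authors deposited for each peak, and it is used here only within a list.

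Within the region, peaks were denser where genes were denser in most lists. The 10 Mb from 85 to 95 Mb, which hold 4 protein-coding genes, had the lowest density of the 8 such stretches for Mgea5, with 19.4 and 11.3 peaks per Mb, and for Panx2 replicate 2, with 20.8. The stretch from 55 to 65 Mb, with 143 protein-coding genes, had 44.9 and 28.5 peaks per Mb of Mgea5 and 61.2 of Panx2 replicate 2. That from 45 to 55 Mb held the most protein-coding genes, 152, but fewer peaks. It had 39.2 and 23.8 peaks per Mb of Mgea5 and 51.7 of Panx2 replicate 2. From 65 to 75 Mb, with 90 such genes, the values were 44.1, 27.6 and 57.0. The last stretch, from 115 Mb, had 36 protein-coding genes and yet the highest density of Mgea5 replicate 1, 55.5 peaks per Mb. Panx2 replicate 1 was flat, at 4.10 to 6.10 peaks per Mb in all 8 stretches.

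Over the 79 complete 1 Mb bins, Spearman's rho between peaks and protein-coding genes was 0.67 and 0.63 in the Mgea5 lists, -0.22 and 0.73 in those of Panx2 and 0.12 and 0.36 in those of Polr1c. The same over 2256 bins of other autosomes was 0.46 and 0.38 in the Mgea5 lists, -0.26 and 0.57 in those of Panx2 and 0.13 and 0.60 in those of Polr1c. Over 166 bins of the X chromosome it was 0.48 and 0.50, 0.03 and 0.55, and 0.15 and 0.03. These are descriptions across bins of 1 library each, which share depth, mappability and base composition. The densest distal bin was that starting at 118 Mb for Mgea5 replicate 1 (86 peaks), 105 Mb for Mgea5 replicate 2 (56) and 54 Mb for Panx2 replicate 2 (113). Each of these bins still lay at or below 0.561 of the density of the other autosomes.

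Except in Polr1c replicate 1, with 5 distal peaks, the peaks that remained had median folds close to those elsewhere. In 5 of the 6 lists the distal peaks were narrower than on other autosomes. The median fold of distal peaks was 1.69 and 1.71 in the Mgea5 lists, 1.79 and 1.87 in those of Panx2 and 3.63 and 2.75 in those of Polr1c. On other autosomes it was 1.71 and 1.71, 1.81 and 1.84, and 3.05 and 2.75. The lists hold only peaks that the caller kept, so medians near its floor are alike in part by construction. The median width was 386 and 329 bp for Mgea5 against 527 and 433 bp, and 433 and 356 bp for Panx2 against 713 and 516 bp. Polr1c peaks, in the narrow layout, had 273 and 204 bp against 314 and 188 bp. On the X chromosome the median widths were 400 and 336 bp for Mgea5, 489 and 367 bp for Panx2 and 375.5 and 204 bp for Polr1c. With fewer and narrower peaks, Mgea5 peaks covered 1.71% and 0.881% of the region against 15.1% and 11.8% of other autosomes. They covered 1.75% and 0.928% of the X chromosome, so narrow peaks and low coverage were not particular to the region.

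Most members carry little evidence one by one. The −log10 q was 0 for 98.4% and 98.0% of the distal Mgea5 peaks, 99.5% and 67.6% of the Panx2 peaks, and 60.0% and 26.8% of the Polr1c peaks. A q of at most 0.01 was reached by 3 and 2 distal Mgea5 peaks, 1 and 3 Panx2 peaks, and 1 and 16 Polr1c peaks. At the density of the other autosomes, 3.57 and 3.50 Mgea5, 0.315 and 11.7 Panx2, and 7.28 and 43.5 Polr1c peaks of that strength would have stood in the region. The exact Poisson 95% interval of the ratio of these numbers was 0.173 to 2.46 and 0.0692 to 2.06 for Mgea5. It was 0.0804 to 17.7 and 0.0531 to 0.753 for Panx2, and 0.00348 to 0.766 and 0.210 to 0.597 for Polr1c. Such intervals cover counting error only, and here they show how little 1 to 16 peaks fix a ratio.

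Peaks at the ends of protein-coding genes were thinned less than peaks elsewhere. A peak was placed at a gene end when it lay within 1000 bp of the start or end of 1 of the 496 protein-coding genes of the region. Per gene, the distal rate of Mgea5 peaks at ends was 0.383 and 0.220 of that on other autosomes, while per Mb the rate elsewhere was 0.156 and 0.0986. For Panx2 replicate 2 these ratios were 0.480 and 0.208, and for Polr1c replicate 2 they were 0.295 and 0.0884. Panx2 replicate 1 went the other way, with 0.0562 at gene ends and 0.0821 elsewhere. Polr1c replicate 1 rested on 1 peak at an end and 4 elsewhere. On the X chromosome the ratios were 0.323 and 0.191 at ends against 0.156 and 0.0974 elsewhere for Mgea5, and 0.368 against 0.176 for Panx2 replicate 2.

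**Figure D2:**
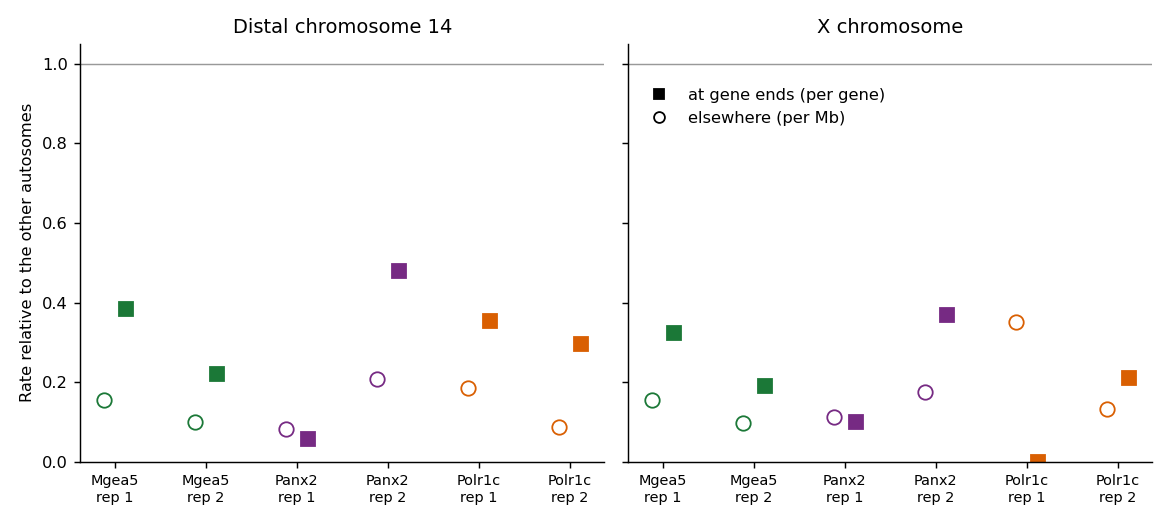
Rate of peaks at ends of protein-coding genes (squares, per gene) and elsewhere (open circles, per Mb), each as a ratio to the other autosomes (y axis, grey line at 1), for the 6 lists (x axis) on distal chromosome 14 (left) and on the X chromosome (right). All ratios lie below 0.5, and on distal chromosome 14 the square lies above the circle in every list except Panx2 replicate 1.

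Counted by gene, 250 of the 496 distal protein-coding genes (50.4%) had a Mgea5 replicate 1 peak at an end and 132 (26.6%) a replicate 2 peak. The background over all 21887 protein-coding genes of the main chromosomes was 81.2% and 71.2%. Panx2 replicates 1 and 2 had 7 genes (1.41%) and 298 genes (60.1%), with backgrounds of 23.5% and 82.1%. Polr1c had 1 gene (0.202%) and 31 genes (6.25%), with backgrounds of 0.594% and 17.5%. In both replicates of a protein there were 92 genes for Mgea5 (18.5%), 3 for Panx2 (0.605%) and 1 for Polr1c, where the backgrounds were 64.3%, 20.1% and 0.521%. All 3 proteins had a peak at an end of 25 genes (5.04%, background 17.2%). Peaks counted for 1 gene can lie at different ends or apart within a window, so they need not overlap. Peak density chose the region, so nothing is read from the distance of these shares to their backgrounds.

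**Figure D3:**
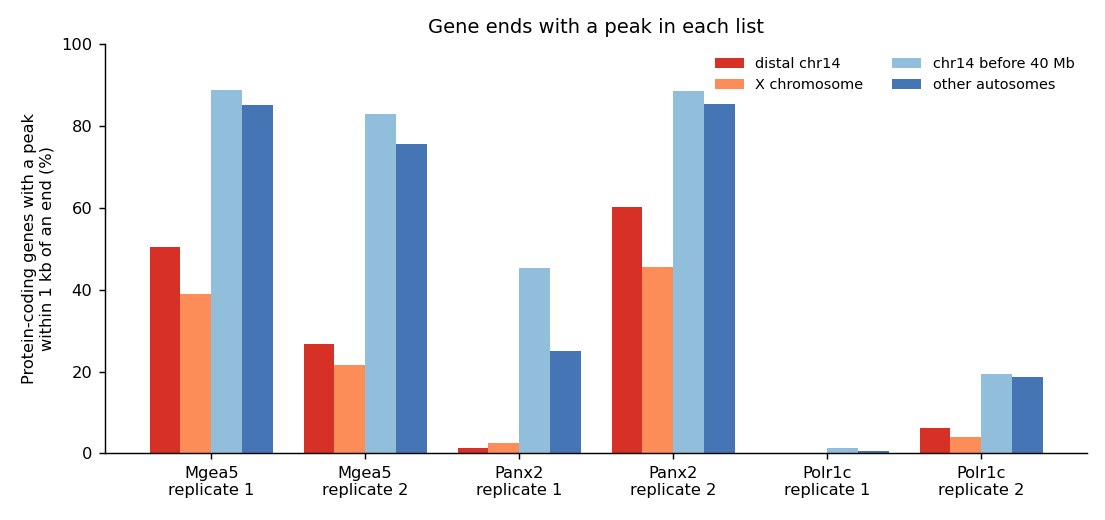
Share of protein-coding genes with a peak within 1 kb of an end (y axis, percent) in each of the 6 lists (x axis) for distal chromosome 14, the X chromosome, chromosome 14 before 40 Mb and the other autosomes. Distal genes carried peaks more often than X-linked genes in 5 of the 6 lists, the exception being Panx2 replicate 1, and less often than the other autosomes in every list.

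Of the 496 genes, 125 had a peak of no list at an end, 134 of 1 list, 139 of 2, 85 of 3 and 13 of 4, and no gene had one of 5 or 6. Thus 2.62% of the distal genes had peaks of at least 4 lists at their ends, with a background of 26.9%. These peaks need not overlap, and those of Zmym2 and Hr did not form a merged region of 4 lists. The 13 genes were Zmym2, Rnaseh2b, Prmt5, Wdhd1, Socs4, Hr, Mzt1, Bora, Gpc6, Micu2, Psmb5, Rb1 and Fgf9. Wdhd1, Socs4, Hr and Micu2 were named after their values were seen. Wdhd1, a replication factor, and Socs4, a suppressor of cytokine signalling, start next to each other and share most of their peaks, as do the mitotic genes Mzt1 and Bora.

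Zmym2, a zinc finger protein of repressor complexes, had folds of 2.21 for Mgea5 replicate 1, 1.76 and 2.88 for Panx2 and 3.06 for Polr1c replicate 2. Rnaseh2b, a subunit of ribonuclease H2, had 2.15 and 1.999 for Mgea5, 2.02 for Panx2 replicate 2 and 3.67 for Polr1c replicate 2. Wdhd1 had 2.02 and 1.65 for Mgea5, 2.63 for Panx2 replicate 2 and 3.003 for Polr1c replicate 2. In 10 of the 13 genes the 4 lists were those same ones, both Mgea5 lists and the longer list of each of the other proteins. Psmb5, a catalytic subunit of the proteasome, was instead in both Mgea5 lists (1.75 and 2.01) and both Panx2 lists (1.81 and 2.57) and in no Polr1c list.

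The autophagy gene Atg14, whose product targets the class III phosphatidylinositol 3-kinase complex to forming autophagosomes, had the highest Mgea5 folds of the region. Its promoter, shown above, had a Mgea5 fold of 3.50 in replicate 1 and 3.62 in replicate 2, with −log10 q of 2.82 and 3.27. The merged region, chr14:47567704-47568849, was in these 2 lists only. Both values were the highest of any distal peak in their list, and the replicates were close to each other. The next highest gene end in both Mgea5 replicates was that of Mtmr9, a myotubularin-related protein, with 2.21 and 1.96, neither of them at a q of at most 0.01. The Atg14 region also meets an end of the pseudogene Gm6616, and peaks cannot be assigned to either.

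Among autophagy and proteasome genes, 15 of the listed 16 lie in the region. Mgea5 peaks stood at the ends of 11 and 6 of them (73.3% and 40%), where the share over all 496 distal protein-coding genes was 50.4% and 26.6%. Panx2 peaks stood at 2 and 12 (13.3% and 80%, against 1.41% and 60.1%) and Polr1c peaks at none (against 0.202% and 6.25%). The lists hold few genes and were chosen with the data known, so nothing particular to them is read from these shares or those of the lists that follow. Both Mgea5 replicates had peaks at the ends of 5 of the 15 genes and both Panx2 replicates at those of 2. Ubac2, a ubiquitin-associated membrane protein, had 2.03 and 1.54 for Mgea5 and 2.88 for Panx2 replicate 2. Nedd8, the ubiquitin-like modifier of cullins, had a peak in no list.

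The Polr1c sites with the highest folds were of 2 kinds, tRNA genes and places with no annotated small RNA gene. All 5 distal peaks of Polr1c replicate 1 can be named. Of these, 3 lay on tRNA genes: n-TLaag8 with a fold of 3.63, n-TRacg6 with 4.79 and n-TEttc6 with 3.41. The fourth lay in Gpc6, a glypican gene, with 3.63, and the fifth was the last peak of the chromosome with 1.36. Replicate 2 had peaks at n-TLaag8 (5.50) and n-TRacg6 (2.13) but none at n-TEttc6.

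Within 200 bp, Polr1c peaks were at 3 of the 12 distal tRNA genes (25%) in replicate 1 and 5 of 12 (41.7%) in replicate 2. On other autosomes the shares were 34.8% and 41.4% of 379 tRNA genes, and on the X chromosome 0 and 1 of 17. Replicate 2 had n-TLaag8, n-TPagg4, n-TTtgt3, n-TYgta10 and n-TRacg6. The first 4 of these lie in a cluster of 7 tRNA genes between 51063883 and 51090718, beside the ribonuclease genes. n-TPagg4 and n-TTtgt3 share a single peak with a fold of 4.89 and a −log10 q of 4.24. n-TLtag2, n-TTtgt1 and n-TPtgg5 of the same cluster had no Polr1c peak. tRNA genes exist in near-identical copies, and reads of such copies could have been split among them.

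The n-TLaag8 region, chr14:51062827-51064649, had Mgea5 folds of 1.71 and 2.11 and Polr1c folds of 3.63 and 5.50, with a −log10 q of 7.33 in Polr1c replicate 2 and no Panx2 peak. The site at n-TRacg6 lies 58 bp from Prmt5, an arginine methyltransferase that acts on histones and splicing proteins, and overlaps the promoter shown above. Its Polr1c folds were 4.79 and 2.13 and its Mgea5 replicate 2 fold was 1.71. The Polr1c peaks cover the tRNA gene and part of the Prmt5 promoter window but not the annotated Prmt5 start, and the lists do not say which gene they belong to. Rpph1, the RNA of ribonuclease P and another RNA polymerase III transcript, had no Polr1c peak within 200 bp and a Mgea5 replicate 1 peak of 1.87.

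The other strong Polr1c sites were in replicate 2 only. The end of Zfp395, a zinc finger gene, had the highest Polr1c fold of the region, 7.03, with a −log10 q of 10.5. A site at chr14:65343806-65344870, 13806 bp from Zfp395, had 6.72 with the highest −log10 q of this list in the region, 20.2. Another site, chr14:93890780-93891298, had 6.47 with 17.3. It lies inside the protocadherin gene Pcdh9, close to the gene end at 93892834 but not within 1000 bp of it. None of these had a Polr1c replicate 1 peak, and their Mgea5 and Panx2 folds, where there was a peak, were 1.61 to 1.998.

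Other gene ends had lower values. In Polr1c replicate 2 the end of Rap2a, a small GTPase, had 5.12, that of Slain1, a microtubule growth factor, 4.89, and that of Tdrd3, a Tudor-domain reader of methylated arginine, 4.59. The ends of Gpc6 (3.82), Mapk1ip1l next to Gm35078 (3.80) and Mycbp2, a ubiquitin ligase of axon development (3.50), passed a q of 0.01 as well. Tdrd3, Slain1 and Mapk1ip1l also had peaks of Mgea5 replicate 1 (2.27, 1.62 and 2.23) and Panx2 replicate 2 (2.31, 1.93 and 1.94). Rap2a had a peak of no other list in its region.

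**Figure D4:**
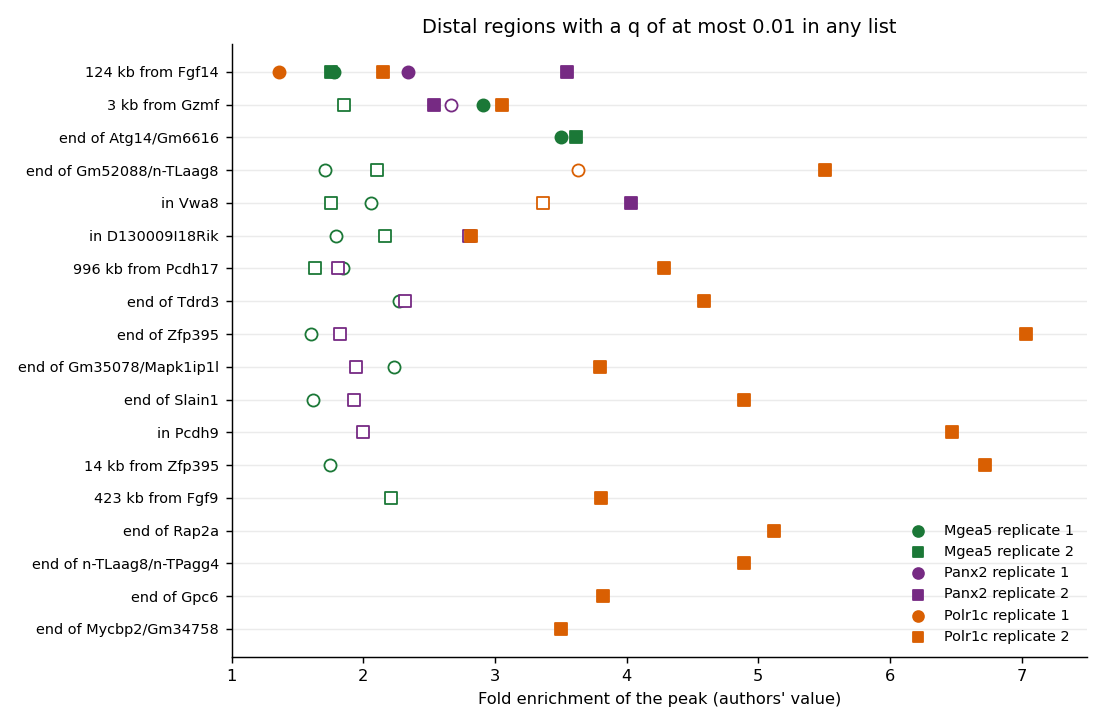
Fold enrichment (x axis, the authors' value for each peak) of the 18 distal regions that reached a q of at most 0.01 in any list (y axis, named by gene end, surrounding gene, or nearest protein-coding gene and its distance). Colour is the protein, circles and squares are replicates 1 and 2, and filled symbols have a q of at most 0.01. In all, 3 regions have filled symbols of more than 1 list. Polr1c replicate 2 folds reach 7.03, and folds are read only within a list.

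When peaks of all lists that overlap by at least 1 bp were merged, the 8712 peaks formed 7305 regions. Of these, 6299 had peaks of 1 list, 733 of 2, 215 of 3, 52 of 4, 5 of 5 and 1 of all 6. Those with at least 4 lists numbered 58, or 0.727 per Mb. Other autosomes had 13.0 per Mb, the X chromosome 1.14 and chromosome 14 before 40 Mb 23.1. As a share of all merged regions, 0.794% of the distal ones had at least 4 lists against 2.87% on other autosomes and 1.38% on the X chromosome. Regions with all 3 proteins made up 1.70% of regions on other autosomes, 1.44% on the X chromosome and 1.84% on chromosome 14 before 40 Mb. On distal chromosome 14 there were 68, or 0.931%. Without replicate 1 of each protein 41 such regions were left, and without replicate 2 only 1, the end of the chromosome.

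Most of the 58 regions lay away from ends of protein-coding genes, as did most single distal peaks of every list. There were 10 at ends of protein-coding genes, 4 at ends of other genes, 14 inside protein-coding genes, 3 inside other genes and 27 with no gene within 1000 bp. Of the last, 18 were over 100 kb from the nearest protein-coding gene. The combination of both Mgea5 lists with Panx2 replicate 2 and Polr1c replicate 2 made up 32 of the 58, and that of both Mgea5 and both Panx2 lists 15.

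The region with peaks of all 6 lists was the last of the chromosome, chr14:124801561-124802229, 123875 bp from Fgf14, a fibroblast growth factor homologue that modulates sodium channels. Its folds were 1.78 and 1.75 in the Mgea5 lists, 2.34 and 3.55 in those of Panx2 and 1.36 and 2.15 in those of Polr1c. Every list gave it a q below 0.01, with −log10 q of 3.11 and 3.11, 86.9 and 19.0, and 5.74 and 10.2. Low folds stood here beside very small q, above all in Panx2 replicate 1, and this was the only distal peak of that list with a q of at most 0.01.

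None of the 5 regions in 5 lists touched the end of a gene. They were a region 3014 bp from Gzmf, a granzyme gene of cytotoxic lymphocytes, one 14218 bp from the prostaglandin receptor gene Ptger2, one 151416 bp from the neurofilament gene Nefm, one 66444 bp from Mycbp2 and one inside Nalcn, which encodes a sodium leak channel. All lacked a Polr1c replicate 1 peak. The region near Gzmf, chr14:56201518-56202249, had 2.91 and 1.85 for Mgea5, 2.66 and 2.54 for Panx2 and 3.06 for Polr1c replicate 2. It passed a q of 0.01 in 3 lists, Mgea5 replicate 1, Panx2 replicate 2 and Polr1c replicate 2. The region inside Nalcn had 2.01 and 2.20 for Mgea5, 1.76 and 3.03 for Panx2 and 3.06 for Polr1c replicate 2, with no q of at most 0.01.

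Further regions with 4 lists passed that q in 1 list. The one inside Vwa8 had a Panx2 replicate 2 fold of 4.04 (3.36 in Polr1c replicate 2), the highest Panx2 fold of the region. The one in the long noncoding RNA D130009I18Rik had 2.80 for Panx2 replicate 2 and 2.82 for Polr1c replicate 2. A region 995841 bp from the protocadherin gene Pcdh17 had 4.28 in Polr1c replicate 2. A region in 2 lists only, 422642 bp from Fgf9, had 3.80 in Polr1c replicate 2 and a peak of Mgea5 replicate 2.

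Both replicates shared 338 distal regions for Mgea5, made from 11.6% of the peaks of replicate 1 and 19.5% of replicate 2. On other autosomes 35.1% and 37.1% of the Mgea5 peaks touched the other replicate, and on the X chromosome 14.8% and 25.1%. For Panx2 there were 55 shared regions, from 13.99% of replicate 1 and 1.64% of replicate 2, against 28.2% and 8.87% of the peaks on other autosomes. For Polr1c there were 3, at n-TLaag8, at n-TRacg6 beside Prmt5, and at the end of the chromosome. With peaks of a −log10 p of at least 3 only, the shared regions numbered 3 for Mgea5, 1 for Panx2 and 3 for Polr1c. Shares of overlap fall where fewer bases are covered, and the covered share differed as given above.

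The highest Panx2 regions shared by both replicates, after the end of the chromosome, were not at gene ends. They lay 226569 bp from the endothelin receptor gene Ednrb (2.29 and 3.28), 3019 bp from Gzmf, 66547 bp from Mycbp2 (1.84 and 3.09) and 394946 bp from Prr30 (1.97 and 2.74). For Mgea5 the highest after Atg14 were near Gzmf, 585574 bp from Trim52 (2.22 and 2.16), at Mtmr9 and at Rnaseh2b.

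Of 24 genes listed for chromatin, transcription and RNA polymerase III that lie in the region, Mgea5 peaks were at the ends of 20 and 11 (83.3% and 45.8%, against 50.4% and 26.6% of all distal protein-coding genes). Panx2 peaks were at 1 and 14 (4.17% and 58.3%, against 1.41% and 60.1%) and Polr1c peaks at 1 and 3 (4.17% and 12.5%, against 0.202% and 6.25%). Both Mgea5 replicates had peaks at the ends of 11 of the 24 genes. Polr3d, a subunit of RNA polymerase III, had 2.15 and 1.48 for Mgea5, 2.51 for Panx2 replicate 2 and no Polr1c peak. Chd8, a chromatin remodeller, and its neighbour Supt16, a subunit of the FACT histone chaperone, each had 1.78 and 2.11 for Mgea5. Hnrnpc, a splicing regulator, had 1.66 and 1.58 for Mgea5 and 2.93 for Polr1c replicate 2. Tox4, Phf11a and Ccnb1ip1 had a peak of no list.

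Of 19 cell cycle and growth genes, Mgea5 peaks were at 12 and 6 (63.2% and 31.6%, against 50.4% and 26.6% of all distal protein-coding genes). Panx2 peaks were at 0 and 16 (0% and 84.2%, against 1.41% and 60.1%) and Polr1c peaks at 0 and 4 (0% and 21.1%, against 0.202% and 6.25%). Rb1, the retinoblastoma tumour suppressor, had 1.81 and 1.57 for Mgea5, 1.82 for Panx2 replicate 2 and 2.75 for Polr1c replicate 2. Mzt1, a component of microtubule-nucleating complexes, and Bora, an activator of mitotic kinases, both had 2.90 for Panx2 replicate 2 and 2.45 for Polr1c replicate 2. Esco2, a cohesin acetyltransferase, had peaks of both Mgea5 lists (1.84 and 1.71) and of Panx2 replicate 2 (1.84).

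Of 25 neurodevelopmental genes, Mgea5 peaks were at the ends of 17 and 11 (68% and 44%, against 50.4% and 26.6% of all distal protein-coding genes). Panx2 peaks were at 0 and 21 (0% and 84%, against 1.41% and 60.1%) and Polr1c peaks at 0 and 3 (0% and 12%, against 0.202% and 6.25%). Fgf9, a growth factor of the developing brain, had 1.62 and 1.65 for Mgea5, 1.94 for Panx2 replicate 2 and 2.45 for Polr1c replicate 2. Dpysl2, a regulator of axon growth, had 3.98 for Polr1c replicate 2 beside 1.67 for Mgea5 replicate 1 and 2.44 for Panx2 replicate 2. The transcription factor genes Egr3, Klf5 and Ebf2 had peaks of both Mgea5 lists and of Panx2 replicate 2. Among these named genes Egr3 had the highest Panx2 replicate 2 fold, 2.67. Pou4f1, which had no Mgea5 replicate 2 peak, had 2.74. Gata4, a factor of heart and gut, was the only member with a peak of no list.

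Of 23 neuronal and adhesion genes, Mgea5 peaks were at 14 and 4 (60.9% and 17.4%, against 50.4% and 26.6% of all distal protein-coding genes). Panx2 peaks were at 0 and 17 (0% and 73.9%, against 1.41% and 60.1%) and Polr1c peaks at 0 and 1 (0% and 4.35%, against 0.202% and 6.25%). Gpc6 had all of the long lists, with 1.73 and 1.82 for Mgea5, 1.80 for Panx2 replicate 2 and 3.82 for Polr1c replicate 2. Dock9, an exchange factor for Cdc42 in dendrite growth, had 2.29 and 1.59 for Mgea5 and 1.87 for Panx2 replicate 2. Slitrk6, Pcdh9 and Olfm4 had no peak at an end, although Pcdh9 held the strong Polr1c site in its body.

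Of the 15 members of the ribonuclease A family, Mgea5 peaks were at the ends of 3 and 3 (20% in each, against 50.4% and 26.6% of all distal protein-coding genes). Panx2 peaks were at 0 and 5 of them (0% and 33.3%, against 1.41% and 60.1%) and Polr1c peaks at none (against 0.202% and 6.25%). Ang, the angiogenin gene, and Rnase4 have an end in common and shared a Mgea5 replicate 2 peak of 1.67 and a Panx2 replicate 2 peak of 1.68. Of 37 olfactory receptor genes, 2 and 1 (5.41% and 2.70%, against 50.4% and 26.6% of all distal protein-coding genes) had Mgea5 peaks. Panx2 peaks were at 2 and 1 (5.41% and 2.70%, against 1.41% and 60.1%) and Polr1c peaks at none (against 0.202% and 6.25%). The 198 T cell receptor alpha and delta segments are not counted among the 496 genes. Of these segments 5 and 4 (2.53% and 2.02%) had Mgea5 peaks, 0 and 13 (0% and 6.57%) Panx2 peaks, and 0 and 1 (0% and 0.505%) Polr1c peaks. All distal protein-coding genes had 50.4% and 26.6%, 1.41% and 60.1%, and 0.202% and 6.25%. Those genes are another class of feature, so their shares are no matched background for the segments. The same families on other chromosomes were not counted.

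Among the 34 microRNA genes, a Mgea5 peak lay within 5000 bp of 27 and 11, a Panx2 peak of 1 and 26, and a Polr1c peak of 0 and 1. On other autosomes the shares of 1093 microRNA genes were 95.8% and 90.2%, 38.1% and 95.1%, and 1.01% and 23.8%, where the distal ones were 79.4% and 32.4%, 2.94% and 76.5%, and 0 and 2.94%. The 6 microRNAs of the miR-17-92 cluster and their host Mir17hg, with the sequences shown above, had a Mgea5 replicate 1 peak of 1.81 and a Panx2 replicate 2 peak of 2.21 and no other. The genes lie within 836 bp of each other, so these are the same 2 peaks counted for each. Mir15a and Mir16-1 had 1 peak, of Mgea5 replicate 1, with 1.67.

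Mir124a-1, a gene of the neuronal microRNA miR-124, had peaks of both Mgea5 lists (1.55 and 1.74) and of Panx2 replicate 2 (2.47). Mir320, which lies just beyond an end of Polr3d, had 1.64 and 1.48 for Mgea5 and 2.51 for Panx2 replicate 2. Mir686 was the only microRNA gene with 4 lists, 1.86 and 2.01 for Mgea5 and 1.81 and 2.57 for Panx2. It lies within Psmb5, whose end had the same folds except in Mgea5 replicate 1. Mir5130 had the Polr1c replicate 2 peak, with 2.75.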

How the data were processed

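Peak lists of 6 ChIP-seq libraries were analysed, and the input libraries were not used here. Per the submitters' processing notes, MACS3 3.0.0a5, Bowtie2 2.3.5 with the mm10 build, and Trim Galore were used. Not given in the sources used here were the caller's control and cut-offs, the number of reads, and the handling of duplicates and repeats. The values the authors deposited per peak are a fold over background (a ratio), a −log10 p-value, a −log10 q-value and a score, which was not used. The lowest deposited −log10 p was 1.00 in the Mgea5 and Panx2 lists and 2.00 in the Polr1c lists. Precision is limited by the number of peaks, and depth in reads is unknown.

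Peaks per Mb were counted from the first to the last peak of any list on each chromosome and divided by the density of the 18 other autosomes. Genes came from the RefSeq table of GRCm38.p6, without strand, and windows of 1000 bp around both ends, 5000 bp around microRNA genes and 200 bp around tRNA genes were searched. Overlap meant at least 1 bp. Python 3.11.15, pandas 2.3.3, numpy 2.4.6 and scipy 1.17.1 were used, and the counting was tested on simulated data. Because peak number chose the region, no comparison between groups was tested. The members and gene lists were chosen with earlier results of these data known.

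Named were genes at regions in at least 5 lists (none had an end there), the 5 highest regions per protein in both replicates, regions with a q of at most 0.01, and up to 6 genes per list by number of lists and fold, besides members without a peak. Alternatives were a −log10 p of at least 3, a −log10 q of at least 2, covered bases, a start at 50 Mb, chromosome 14 before 40 Mb as reference, windows of 500 and 2500 bp, a reciprocal overlap of 50%, joining within 500 bp, dropping the last 1 Mb of each chromosome, and leaving out each replicate.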

Additional observations from a re-analysis of the deposited data

How the results depend on the processing

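Of 52 alternative values, 30 stayed within the spread of the replicates, the counting interval or 1.5 times the count, 21 moved and 1 changed direction. The 30 include the densities with 1 replicate left out, which lie within the replicate SD by construction and show no robustness. With a −log10 p of at least 3, the relative density was 0.202 for Mgea5, 0.581 for Panx2 and 0.246 for Polr1c, genes with both Mgea5 or both Panx2 replicates fell to 0.202% and 0%, shared regions to 3 for Mgea5 and 1 for Panx2, and regions of all 3 proteins to 3. With a −log10 q of at least 2, the relative density was 0.706 for Mgea5, 0.253 for Polr1c and 1.72 for Panx2, where the higher value rests on the single Panx2 replicate 1 peak at the end of the chromosome. Windows of 500 and 2500 bp gave 13.3% and 28.2% of genes for Mgea5, and 2500 bp gave 1.81% for Panx2. A reciprocal overlap of 50% left 106 shared Mgea5 and 15 shared Panx2 regions. Covered bases, a start at 50 Mb, the near part of chromosome 14 as reference and leaving out chromosome ends kept every density within the replicate spread. Leaving out 1 replicate gave densities of 0.101 to 0.162 for Mgea5, 0.0806 to 0.216 for Panx2 and 0.102 to 0.195 for Polr1c, gene shares of 26.6% to 50.4%, 1.41% to 60.1% and 0.202% to 6.25%, and 1 to 41 regions of all 3 proteins. The gene share with 1 replicate is larger by construction, since both are then not required. No paired analysis was possible because no result comes from a test. Read depth, mappability and copy number were not tested.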
